A study of Mus musculus with 12 samples.

Results

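Genes of fatty acid oxidation and targets of the PPAR receptors were followed through 6 sorted cell populations of the mouse small intestine. The set was a given list of 35 genes, each represented by its brightest probe set that names a single gene, and 32 of the 35 could be measured among the 17097 genes with such a probe set. Etfb lay on a probe set that names several genes, and Acsl1 and Ucp2 were not analysed here. The listed genes were the receptors Ppara, Pparg and Ppard, their targets Cd36, Pdk4, Plin2, Angptl4 and Ucp2, and 27 enzymes and electron carriers that activate, import, release or oxidise fatty acids.

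Fatty acids are activated to acyl-CoA esters, carried into mitochondria by the carnitine shuttle and shortened there by beta-oxidation, a cycle of dehydrogenation, hydration, renewed dehydrogenation and thiolysis, while peroxisomes run a parallel pathway. PPAR alpha, delta and gamma are nuclear receptors that bind fatty acids and pair with retinoid X receptors on a direct repeat of the element AGGTCA. In the intestinal epithelium they are known to raise transcription of fatty acid oxidation genes during fasting and fat feeding, and in mouse crypts fatty acid oxidation is known to sustain stem cell activity.

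Cells had been separated on Mex3a, which encodes an RNA-binding protein, and on Lgr5, the receptor that marks crypt base stem cells. The populations were Mex3a-high, Mex3a-low and Mex3a-negative cells that were also Lgr5-high, and the same Mex3a gates among Lgr5-low cells, all untreated primary cells. Each population was taken from 2 biological replicates, MR793 and MR820, which gave 12 arrays of 2000 cells each after 22 amplification cycles. The labels give no strain, allele, age or reporter for the Mex3a gate, nor whether a replicate was 1 mouse or a pool. P values therefore measure the spread between these arrays.

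All values below are RMA log2 levels per probe set, and differences are log2 differences, so that 1.00 is a doubling in fold terms. The array medians lay at 5.83 to 6.04. Stem cell markers rose in Lgr5-high relative to Lgr5-low cells (6 of 9 called, median difference 0.95), while tuft (7 of 8 called, median -1.75) and enteroendocrine markers (8 of 11 called, median -1.71) fell. Adipocyte and mesenchymal markers, which would bring PPAR gamma targets of their own, had a median level of 4.95 to 5.08 on 11 arrays. One array stood apart: the MR793 array of Mex3a-high Lgr5-high cells correlated at 0.896 to 0.916 with the rest, against 0.971 to 0.996 among the other 11, and its adipocyte and mesenchymal marker median was 5.70. With this array a gene's residual SD had a median of 0.220, and without it 0.116, so results are given with and without it. In sorted bulk samples of this kind, fewer cells of a type and less RNA per cell cannot be told apart.

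The proximal promoters of 6 members are shown because their genes carry the patterns described below: Pdk4 and Cpt1a differed widely between the replicates, Acot1 and Acot2 differed between the Lgr5 gates, and Acadvl and Plin2 represent the oxidation enzymes and the lipid droplet coat. Each window runs from 250 bases before to 50 bases after the gene start along the gene's own strand (RefSeq, GRCm38.p6), and capitals mark the receptor element AGGTCA or its reverse complement TGACCT. The windows are chr6:5496229-5496528 (- strand) for Pdk4, chr19:3323051-3323350 (+ strand) for Cpt1a, chr12:84009252-84009551 (+ strand) for Acot1, chr12:83987611-83987910 (+ strand) for Acot2, chr11:70015379-70015678 (- strand) for Acadvl and chr4:86670010-86670309 (- strand) for Plin2.
Pdk4: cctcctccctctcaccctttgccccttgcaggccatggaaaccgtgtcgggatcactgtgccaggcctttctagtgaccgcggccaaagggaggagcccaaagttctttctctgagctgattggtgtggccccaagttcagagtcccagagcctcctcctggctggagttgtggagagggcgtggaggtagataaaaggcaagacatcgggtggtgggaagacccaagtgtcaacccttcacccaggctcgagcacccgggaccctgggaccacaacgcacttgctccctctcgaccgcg
Cpt1a: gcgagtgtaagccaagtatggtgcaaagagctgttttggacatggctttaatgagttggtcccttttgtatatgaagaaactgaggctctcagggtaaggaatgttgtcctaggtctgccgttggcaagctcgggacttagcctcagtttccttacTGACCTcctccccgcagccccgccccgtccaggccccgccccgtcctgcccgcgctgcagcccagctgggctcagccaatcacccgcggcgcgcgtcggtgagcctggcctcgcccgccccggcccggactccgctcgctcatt
Acot1: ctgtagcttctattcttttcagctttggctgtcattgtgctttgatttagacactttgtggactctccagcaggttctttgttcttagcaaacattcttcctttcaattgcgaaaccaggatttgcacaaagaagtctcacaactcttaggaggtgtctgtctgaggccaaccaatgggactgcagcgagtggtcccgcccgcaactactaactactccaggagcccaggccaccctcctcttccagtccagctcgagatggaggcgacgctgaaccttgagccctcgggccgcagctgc
Acot2: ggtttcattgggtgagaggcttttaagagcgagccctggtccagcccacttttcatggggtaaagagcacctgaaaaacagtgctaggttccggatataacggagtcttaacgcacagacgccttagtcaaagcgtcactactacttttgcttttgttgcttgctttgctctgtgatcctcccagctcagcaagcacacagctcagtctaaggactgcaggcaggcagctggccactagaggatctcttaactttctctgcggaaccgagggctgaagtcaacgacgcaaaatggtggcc
Acadvl: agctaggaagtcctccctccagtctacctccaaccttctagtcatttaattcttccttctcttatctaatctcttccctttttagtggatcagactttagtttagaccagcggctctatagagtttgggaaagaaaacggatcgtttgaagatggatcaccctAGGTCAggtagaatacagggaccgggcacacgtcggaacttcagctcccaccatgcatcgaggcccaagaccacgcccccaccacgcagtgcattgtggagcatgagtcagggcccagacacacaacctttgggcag
Plin2: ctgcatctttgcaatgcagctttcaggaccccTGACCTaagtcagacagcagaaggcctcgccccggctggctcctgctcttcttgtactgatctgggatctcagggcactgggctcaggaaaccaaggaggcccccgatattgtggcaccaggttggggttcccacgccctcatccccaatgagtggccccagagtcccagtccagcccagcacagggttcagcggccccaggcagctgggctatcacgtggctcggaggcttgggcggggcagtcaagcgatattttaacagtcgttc

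Of the 35 listed genes, 30 had a promoter window, and 7 of these (23.3%) held AGGTCA on either strand in any of their windows, against 18.1% of the 27025 genes with a window. The element began at -94 from the gene start in Cpt1a, -87 in Acadvl, -218 in Plin2, -249 in Acadm, -228 in Cd36 and -83 in Echs1, and Pparg, which has 3 windows at separate starts, held it at -28 in 1 window and at -9 in another. The full direct repeat AGGTCANAGGTCA was found in 0 members and in 0.0481% of all genes with a window, and the looser form AGGNCANAGGNCA in 0 and 0.451%. The windows of Pdk4, Acot1 and Acot2 held neither the single element nor a repeat, which says only that these letters are not in these 300 bases. Acot1 and Acot2, neighbours on chromosome 12, shared 178 of 354 aligned columns (50.3%) of their windows. The only other pair aligned, Acaa1a and Acaa1b, shared 51.8%. No unrelated pair was aligned, so these shares do not show that the windows are alike.

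**Figure D1:**
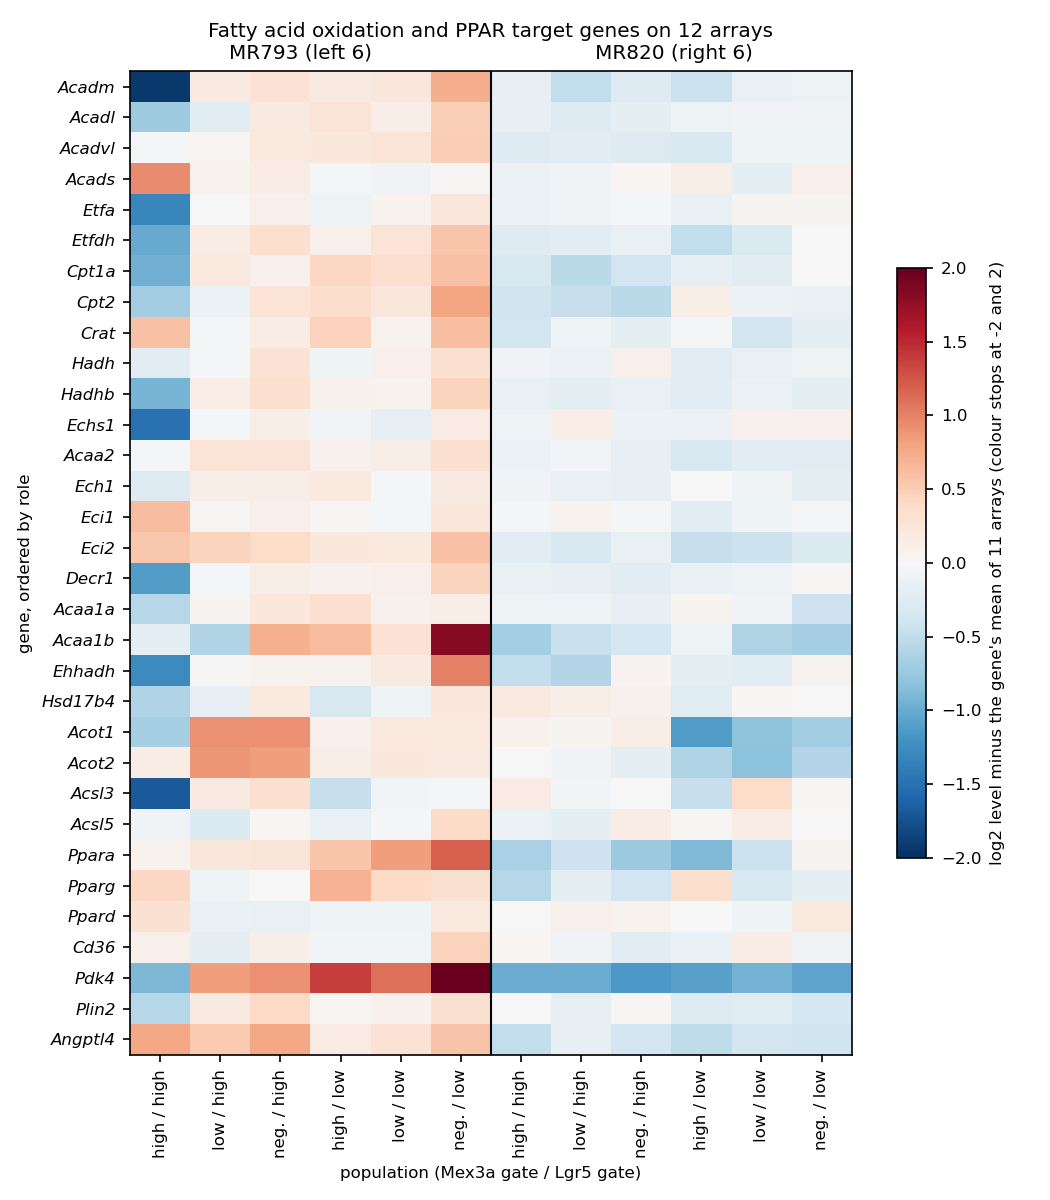
Level of each of the 32 measured members on 12 arrays, as the log2 level minus the gene's own mean over the 11 arrays other than the MR793 array of Mex3a-high Lgr5-high cells. The 6 MR793 arrays are on the left and the 6 MR820 arrays on the right, each ordered by Mex3a gate and Lgr5 gate; most genes are redder in MR793 apart from its first column, the array that stood apart.

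Levels are given below for each replicate in the order Mex3a-high, Mex3a-low and Mex3a-negative. Differences between MR793 and MR820 are means over the 5 populations other than Mex3a-high Lgr5-high, each a difference of 1 array from 1 array, and they are descriptions with no test.

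Among the receptors, Ppara, which encodes the PPAR that drives oxidation genes in liver and gut, had the widest differences. In MR793 it stood at 8.69, 8.85 and 8.87 among Lgr5-high and 9.18, 9.46 and 9.81 among Lgr5-low cells. In MR820 it stood at 7.98, 8.20 and 7.88 among Lgr5-high and 7.74, 8.19 and 8.67 among Lgr5-low cells. Every MR793 array of the 5 populations lay above every MR820 array, by 1.10 on average (range 0.65 to 1.44, rank 54 of 17097 genes), and within each replicate Mex3a-negative Lgr5-low cells held the highest level.

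Pparg encodes the PPAR best known from fat cell differentiation. Its MR793 levels were 7.92, 7.42 and 7.51 among Lgr5-high and 8.20, 7.91 and 7.82 among Lgr5-low cells. Its MR820 levels were 6.94, 7.33 and 7.13 among Lgr5-high and 7.83, 7.19 and 7.34 among Lgr5-low cells. MR793 exceeded MR820 in all 6 populations, although the arrays of the replicates overlapped (mean difference 0.41). Its highest level in both replicates was that of Mex3a-high Lgr5-low cells. Ppard, the broadly expressed PPAR delta, moved least: it ranged over 9.54 to 9.89 on the 11 arrays, with a mean difference of -0.11 between MR793 and MR820.

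Pdk4, a PPAR target whose kinase shuts off pyruvate dehydrogenase and so spares glucose, had the largest replicate difference of the members. MR793 gave 4.63, 6.37 and 6.44 among Lgr5-high and 6.92, 6.63 and 7.51 among Lgr5-low cells. MR820 gave 4.54, 4.55 and 4.38 among Lgr5-high and 4.44, 4.58 and 4.48 among Lgr5-low cells. All MR820 values lay below the array medians, whereas the 5 MR793 populations other than Mex3a-high Lgr5-high lay at 6.37 to 7.51. The mean difference was 2.29 (range 1.82 to 3.03, 4.88-fold, rank 5 of 17097 genes). Because RMA values of dim probe sets are compressed, this fold may understate the true one.

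Angptl4, a secreted inhibitor of lipoprotein lipase and a PPAR target, showed the same ordering of the replicates. In MR793 its levels were 7.46, 7.20 and 7.46 among Lgr5-high and 6.84, 6.97 and 7.25 among Lgr5-low cells. In MR820 they were 6.19, 6.51 and 6.30 among Lgr5-high and 6.18, 6.32 and 6.29 among Lgr5-low cells. The arrays of the replicates did not overlap (mean difference 0.83, range 0.65 to 1.16), and here the array that stood apart lay at the top of the MR793 range. Plin2, the coat protein of lipid droplets, was higher in MR793 in all 5 populations by 0.40 (range 0.28 to 0.65) and its arrays did not overlap either. Cd36, the fatty acid transporter, lay at 4.58 to 5.25 on the 11 arrays, below the array medians, and gave no constant direction (mean difference 0.12).

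The cytosolic thioesterase Acot1 and its mitochondrial counterpart Acot2, which release free fatty acids from acyl-CoA and are PPAR alpha targets, differed both between the replicates and between the Lgr5 gates. Acot1 in MR793 stood at 6.84, 8.41 and 8.41 among Lgr5-high and 7.61, 7.70 and 7.69 among Lgr5-low cells. Acot1 in MR820 stood at 7.59, 7.55 and 7.63 among Lgr5-high and 6.39, 6.70 and 6.80 among Lgr5-low cells. Apart from the array that stood apart, each Lgr5-high array lay above every Lgr5-low array of its replicate.

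Acot2 repeated this. Its MR793 arrays gave 8.46, 9.20 and 9.16 among Lgr5-high and 8.45, 8.53 and 8.51 among Lgr5-low cells. Its MR820 arrays gave 8.33, 8.26 and 8.13 among Lgr5-high and 7.71, 7.50 and 7.73 among Lgr5-low cells. The offset between MR793 and MR820 was 0.95 for Acot1 (range 0.78 to 1.22) and 0.91 for Acot2 (range 0.74 to 1.04), ranks 87 and 100 of 17097 genes. The Acot2 probe set is of a kind that can share sequence with its paralogs, and a second Acot2 probe set, with a mean level of 7.17, differed by 0.56 between the replicates. Lgr5-high minus Lgr5-low in MR820 was 0.06 in this second probe set and 0.59 in the one used, so the difference of Acot2 between the gates rests on 1 of its 2 probe sets.

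**Figure D2:**
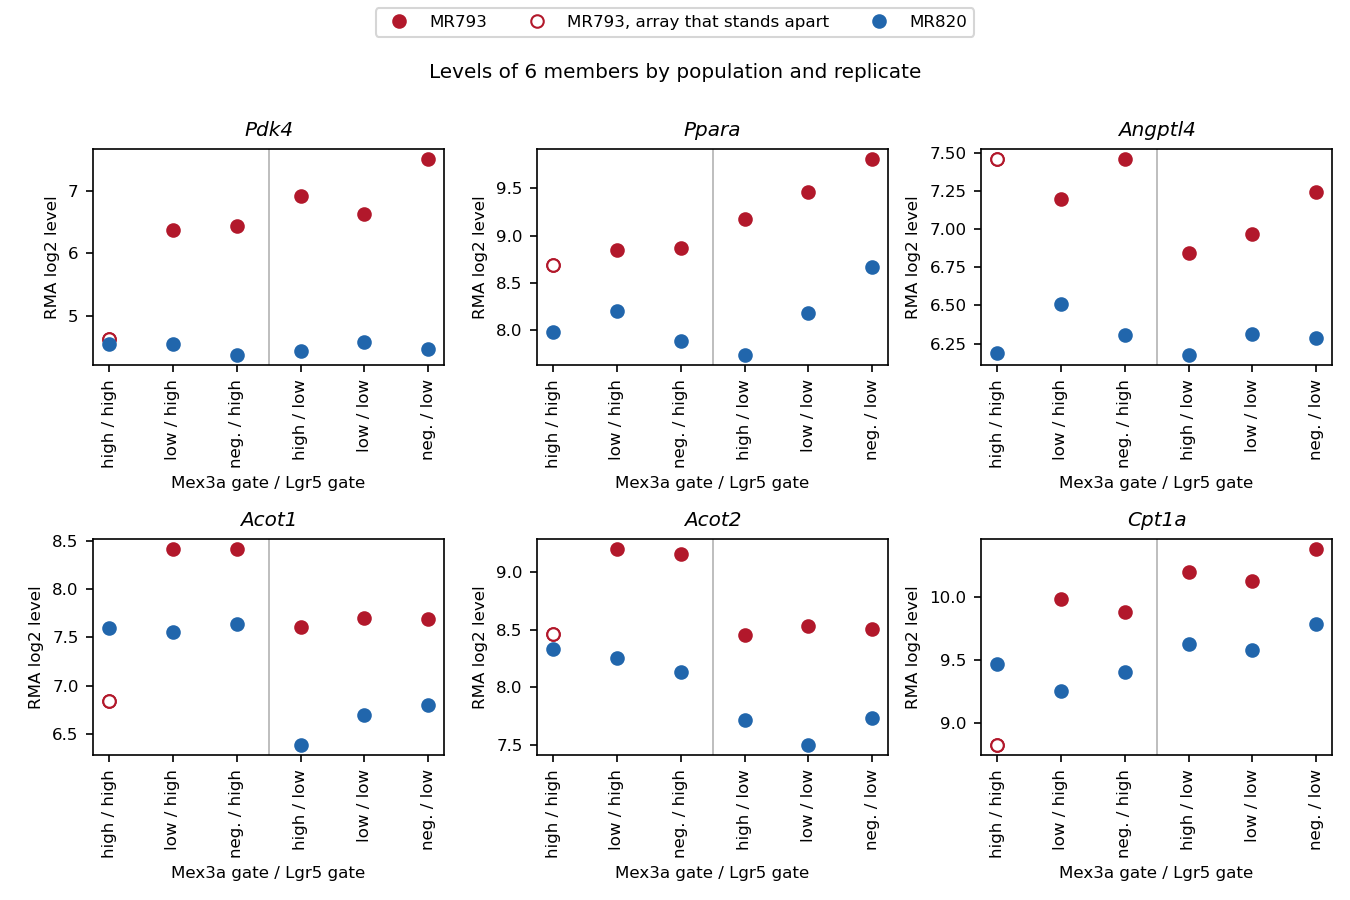
RMA log2 levels of Pdk4, Ppara, Angptl4, Acot1, Acot2 and Cpt1a in the 6 populations (Mex3a gate / Lgr5 gate), 1 point per array, MR793 in red and MR820 in blue, with an axis range of its own for each gene. The open point is the MR793 array of Mex3a-high Lgr5-high cells; elsewhere red lies above blue in every population, and Acot1 and Acot2 step down from the Lgr5-high to the Lgr5-low gate in both replicates.

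Of the carnitine shuttle, Cpt1a encodes the outer membrane acyltransferase that limits entry of long-chain fatty acids into mitochondria. MR793 levels were 8.83, 9.98 and 9.89 among Lgr5-high and 10.20, 10.13 and 10.39 among Lgr5-low cells. MR820 levels were 9.47, 9.25 and 9.41 among Lgr5-high and 9.63, 9.58 and 9.79 among Lgr5-low cells. It ran opposite to the thioesterases between the gates: without the array that stood apart, every Lgr5-high array lay below every Lgr5-low array of its replicate, and MR793 exceeded MR820 by 0.58 (range 0.48 to 0.73).

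Cpt2, the inner membrane partner of Cpt1a, gave 8.19, 8.77 and 9.16 among Lgr5-high and 9.24, 9.12 and 9.68 among Lgr5-low cells in MR793. It gave 8.49, 8.43 and 8.35 among Lgr5-high and 9.01, 8.78 and 8.75 among Lgr5-low cells in MR820. Its replicate difference was 0.53 (range 0.23 to 0.93), with overlap between the replicates. Crat, the short-chain carnitine acetyltransferase, was higher in MR793 in all 6 populations, and over the 5 populations the mean difference was 0.42 with no overlap.

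The acyl-CoA dehydrogenases catalyse the first step of the cycle and pass electrons through electron transfer flavoprotein (Etfa) and its dehydrogenase (Etfdh). Acadm, for medium chains, stood in MR793 at 7.55, 9.66 and 9.77 among Lgr5-high and 9.66, 9.71 and 10.20 among Lgr5-low cells. In MR820 Acadm stood at 9.32, 8.98 and 9.23 among Lgr5-high and 9.05, 9.32 and 9.38 among Lgr5-low cells. The first of these values is the lowest of all 12, while on the other arrays MR793 lay above MR820 throughout, by 0.61 on average (range 0.38 to 0.83).

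Etfdh followed, at 8.40, 9.55 and 9.74 among Lgr5-high and 9.51, 9.67 and 9.96 among Lgr5-low cells in MR793. Its MR820 values were 9.14, 9.19 and 9.25 among Lgr5-high and 8.91, 9.12 and 9.41 among Lgr5-low cells. It differed by 0.51 between the replicates (range 0.37 to 0.60) without overlap, and so did Acadvl, for very long chains, by 0.43 (range 0.25 to 0.58). Acadl, for long chains, and Etfa were higher in MR793 in all 5 populations by smaller means of 0.30 and 0.09, with overlap. Acads, for short chains, did not share the direction (mean 0.03, higher in 3 of 5).

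Later steps of the cycle behaved alike in 3 of 4 measured genes. Acaa2, the mitochondrial thiolase, and Hadhb, the beta subunit of the trifunctional protein, were higher in MR793 in all 5 populations by 0.41 (range 0.32 to 0.54) and 0.38 (range 0.19 to 0.63), without overlap. Hadh, the short-chain hydroxyacyl-CoA dehydrogenase, was higher by 0.22 (range 0.08 to 0.42), whereas Echs1, the short-chain hydratase, differed by -0.01 and was higher in 3 of 5.

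Of the 4 enzymes that prepare unsaturated fatty acids for the cycle, Eci2 (an enoyl-CoA isomerase) had the largest replicate difference, 0.68 (range 0.50 to 0.85), with no overlap. The isomerase Ech1 and the reductase Decr1 were higher in MR793 in all 5 populations by 0.23 and 0.26. The isomerase Eci1 was higher in 4 of 5 by 0.12.

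The peroxisomal enzymes split. The thiolase Acaa1a was higher in MR793 in all 5 populations by 0.30 (range 0.16 to 0.55), and Ehhadh, the bifunctional enzyme and a classical PPAR alpha target in liver, by 0.44 (range 0.02 to 0.93). Acaa1b, the second peroxisomal thiolase gene, reached 7.41 in Mex3a-negative Lgr5-low cells of MR793 and 4.93 in those of MR820. Its mean difference of 1.00 had a range of -0.15 to 2.48, and its MR820 levels lay below the array medians. Hsd17b4, the other bifunctional enzyme, showed no constant direction (mean -0.03, higher in 2 of 5). Neither did the acyl-CoA synthetases Acsl3 (mean 0.01) and Acsl5 (mean -0.04), which activate fatty acids.

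Counted over the list, 23 of the 32 members (71.9%) were higher in MR793 in all 5 populations, against 9.39% of all genes, and 0 members were lower in all 5, against 10.8% of all genes. The 5 MR793 arrays lay entirely above the 5 MR820 arrays for 14 members (43.8%, against 1.93% of all genes), and the mean difference exceeded 0.5 for 11 (34.4%, against 1.99%). With the Mex3a-high Lgr5-high population included, 9 members (28.1%) were higher in all 6, against 4.36% of all genes. The median of the mean differences was 0.40 over the members and -0.01 over all genes. The 9 members outside the count of 23 were Acads, Echs1, Eci1, Acaa1b, Hsd17b4, Acsl3, Acsl5, Ppard and Cd36. In an additive fit over the 11 arrays, the replicate accounted for a median of 48.5% of a member's variation and the population for 35.4%. Over all genes these were 8.27% and 58.8%, although the replicate takes 1 degree of freedom and the population 5. Each share is what 1 term adds to a fit that holds the other, so they are not parts of a single total (54.4% and 50.7% for Acot1). The replicate share exceeded the population share in 20 members (62.5%, against 12.2% of all genes). The list was chosen with earlier results of these data known, so its contrasts with all genes are descriptions and no independent support.

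**Figure D3:**
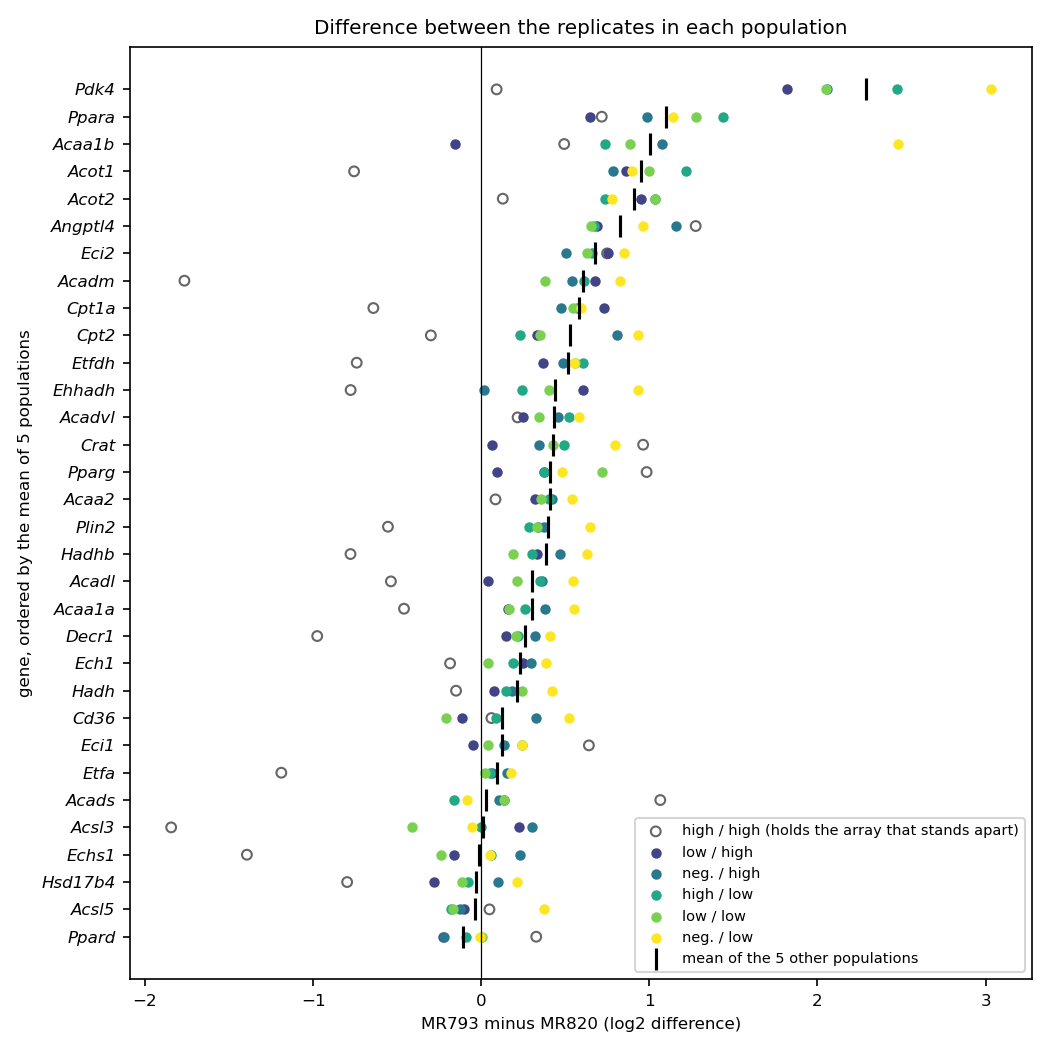
MR793 minus MR820 (log2 difference) for each member in each of the 6 populations, genes ordered by the mean of 5 populations (black tick), 1 point per pair of arrays. Pdk4 is at the top with points from 1.82 to 3.03; open points, the population that holds the array that stood apart, scatter from -1.84 (Acsl3) to 1.28 (Angptl4).

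**Figure D4:**
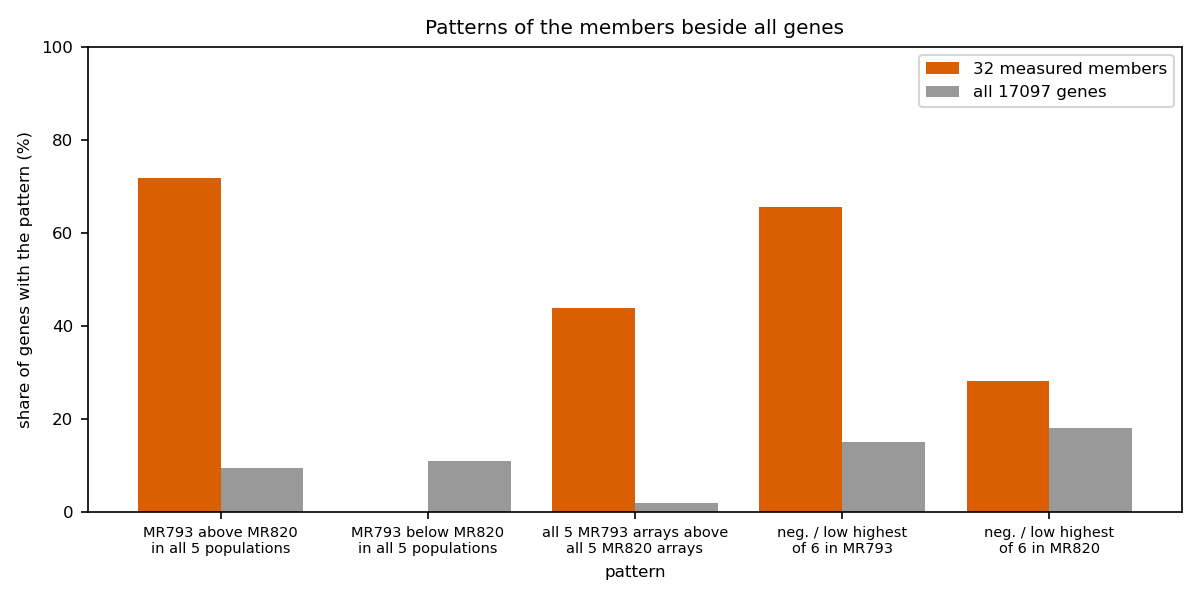
Share of the 32 measured members and of all 17097 genes that show each of 5 patterns, in percent. MR793 lay above MR820 in all 5 populations for 71.9% of the members and 9.39% of all genes, and Mex3a-negative Lgr5-low was the highest population in MR793 for 65.6% and 14.9%. The members were chosen with earlier results of these data known.

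The difference was also present where both replicates shared an array strip, the batch named in the labels. Strip 1 held both arrays of Mex3a-low Lgr5-high and strip 3 both arrays of Mex3a-negative Lgr5-low, and 23 members (71.9%) were higher in MR793 in both populations, against 23.8% of all genes. Median member differences were 0.24 in Mex3a-low Lgr5-high, 0.37 in Mex3a-negative Lgr5-high, 0.29 in Mex3a-high Lgr5-low, 0.34 in Mex3a-low Lgr5-low and 0.55 in Mex3a-negative Lgr5-low cells. In Mex3a-high Lgr5-high cells, which hold the array that stood apart, the median was -0.17.

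Genes around the pathway shared the direction in part. Of all genes, 9.39% were higher in MR793 in all 5 populations and 10.8% lower. Of 17 measured beta-oxidation enzymes and transporters outside the list, 7 were higher in all 5 and 0 lower. The largest difference was that of Slc25a20, the carnitine-acylcarnitine carrier of the inner membrane (0.78, range 0.43 to 1.18). Of 8 fatty acid uptake and binding genes 3 were higher: the binding protein genes Fabp1 (1.22, range 0.56 to 2.77), Fabp2 (0.62) and Dbi (0.24). Of 12 further PPAR targets 3 were higher, namely the malic enzyme gene Me1 (1.33, range 0.64 to 2.36), the transcription factor gene Creb3l3 (1.15) and Txnip (0.39), which encodes a thioredoxin inhibitor. Ketogenesis contributed 1 of 2 (Acat1, 0.34) and the PPAR coactivators and partners 1 of 6 (Prdm16, 0.28). The lists of 2 and of 6 genes are too short to be told from the share of all genes, and the counts of the longer lists were not tested. Of 9 fatty acid synthesis genes 0 were higher and 3 lower in MR793 in all 5, where 10.8% of all genes were lower: the synthase Fasn (-0.41, range -0.49 to -0.30), Acly, which makes cytosolic acetyl-CoA (-0.28), and the elongase Elovl5 (-0.19). The other 6 had no constant direction, among them Acacb with a mean of 0.14. Fabp2, Dbi, Creb3l3, Txnip, Fasn, Acly, Elovl5 and Acacb are named to fill out a count and were chosen after their values were seen.

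Other gene groups moved with the replicates, where 9.39% of all genes were higher in MR793 in all 5 populations. Of 14 measured immediate early and stress genes, a list added after the data were seen, 13 were higher in MR793 in all 5 populations, with a median of 0.93. Among them were the heat shock gene Hspa1b (3.75, range 3.43 to 4.31, rank 1 of 17097 genes) and Atf3 (2.34, rank 4). Enterocyte markers were higher in all 5 for 4 of 13 genes, with a median difference of 1.70 in Mex3a-negative Lgr5-low cells, 0.44 in Mex3a-low Lgr5-low, 0.03 in Mex3a-high Lgr5-low, 0.07 in Mex3a-negative Lgr5-high and 0.03 in Mex3a-low Lgr5-high cells. The median level of the 13 enterocyte markers ranged over 8.59 to 11.2 on the MR793 arrays and 8.39 to 10.7 on the MR820 arrays, and Fabp1 and Fabp2 are among these markers. Tuft markers were higher in all 5 for 3 of 8 genes (median of the mean differences 0.31). Goblet markers were higher in all 5 for 0 of 6 genes, yet all 6 were higher in MR793 in both populations that shared a strip, with medians of 0.72 in Mex3a-low Lgr5-high and 0.67 in Mex3a-negative Lgr5-low cells. Adipocyte and mesenchymal markers were higher in all 5 for 0 of 8 genes, and their median differences were -0.04 to 0.00 in these populations. The part of the stress genes and of enterocytes, tuft and goblet cells in the members' difference was not tested.

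Between Lgr5-high and Lgr5-low cells, averaged over the Mex3a gates, limma called 0 of 32 members, against 1.38% of all genes (3 members at an unadjusted p under 0.05, lowest adjusted p = 0.348). This fit has no block, so the replicate difference, wider in the members than in all genes, enters its residual spread. With the replicate block alone it also called 0 members, against 2.04% of all genes. The median difference was -0.14 over the members (-0.24 in MR793, -0.03 in MR820, -0.06 without the array that stood apart, 0.01 with the strip as a block) and 0.04 over all genes. The count without that array was also 0. Within a replicate and without that array, Lgr5-high lay above all Lgr5-low arrays for 2 members, Acot1 and Acot2 (6.25%, against 4.54% of all genes), and below for 1, Cpt1a (3.12%, against 3.74%). These shares are close to those of all genes.

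A fit that takes the replicate as a block and leaves out the array that stood apart, an alternative chosen after the data were seen, called 6 members (18.8%) in this comparison, against 11.4% of all genes. In this fit 1 array, that of MR820, stands for Mex3a-high Lgr5-high cells and is assumed to vary like the other populations. In this fit Acot1 was higher in Lgr5-high cells, with a log2 difference of 0.88 ± 0.08 (SE; limma adjusted p = 9.93e-05), and so was Acot2, at 0.65 ± 0.07 (limma adjusted p = 0.000321). Pparg fell by 0.44 ± 0.09 (limma adjusted p = 0.0110) and Cpt1a fell by 0.28 ± 0.06 (limma adjusted p = 0.00977). Cpt2 fell by 0.39 ± 0.10 (limma adjusted p = 0.0360), and Ppara fell by 0.37 ± 0.10 (limma adjusted p = 0.0433). No acyl-CoA dehydrogenase, hydratase, thiolase or peroxisomal enzyme was called. Acot2 was read from the probe set that can share sequence with its paralogs.

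These calls were not equally firm, and their dependence on the lone MR820 array of Mex3a-high Lgr5-high cells was not tested. In single Mex3a gates Pparg was called only in Mex3a-high cells, whose Lgr5-high arm is that array. In Mex3a-low cells Pparg was 7.42 in Lgr5-high and 7.91 in Lgr5-low cells of MR793. In MR820 it was 7.33 and 7.19. In 10 refits that each left out a further array, other than that lone one, Acot1, Acot2 and Pparg were called in all 10 and Cpt1a in 9, lost without the MR793 array of Mex3a-negative Lgr5-high cells (limma adjusted p = 0.0519). Cpt2 was called in 5 (limma adjusted p up to 0.134). It was lost without either Mex3a-low Lgr5-low array, without the MR793 array of Mex3a-low Lgr5-high cells, and without the MR820 array of Mex3a-negative Lgr5-high or Mex3a-high Lgr5-low cells. Ppara was called in 4 (limma adjusted p up to 0.148). It was lost without either array of Mex3a-negative Lgr5-high or of Mex3a-low Lgr5-low cells, and without the MR793 array of Mex3a-low Lgr5-high or of Mex3a-high Lgr5-low cells.

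The array strip was partly tied to the Lgr5 gate, since strip 1 held only Lgr5-high and strip 3 only Lgr5-low arrays. A fit with the strip as its only block kept the array that stood apart. The difference in that fit was 1.32 for Acot1, 0.72 for Acot2, -0.43 for Pparg and -0.51 for Cpt2. Cpt1a came to -0.06 and Ppara to -0.09, and 0 members were called. That fit departs from the one with the replicate block both in its block and in its arrays. The part of the strip alone in the lost calls was therefore not tested. Within strip 2, all of MR820, the 2 Lgr5-high arrays (Mex3a-high and Mex3a-negative) and the 2 Lgr5-low arrays (Mex3a-high and Mex3a-low) are not matched by Mex3a gate, and Mex3a-negative Lgr5-low is absent. There Lgr5-high minus Lgr5-low was 1.07 for Acot1, 0.63 for Acot2, -0.47 for Pparg, -0.47 for Cpt2, -0.17 for Cpt1a and -0.03 for Ppara. The matched pair of this strip, 1 Mex3a-high array of each Lgr5 gate, gave 1.21 for Acot1, 0.62 for Acot2, -0.89 for Pparg, -0.52 for Cpt2, -0.16 for Cpt1a and 0.24 for Ppara.

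**Figure D5:**
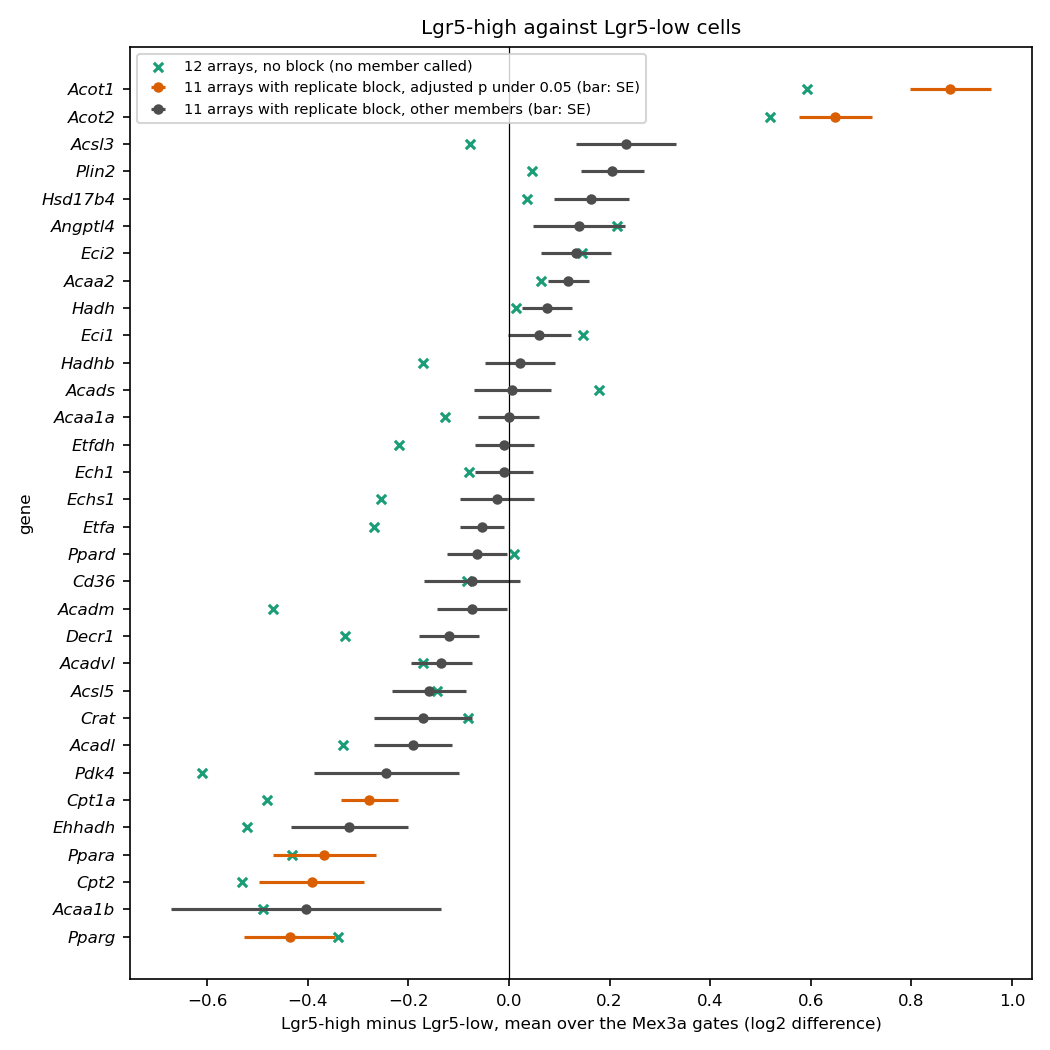
Lgr5-high minus Lgr5-low, mean over the Mex3a gates, for each member (log2 difference). Circles with SE bars are the fit over 11 arrays with the replicate as a block, orange where the adjusted p is under 0.05 (Acot1, Acot2, Pparg, Cpt1a, Cpt2 and Ppara), and green crosses are the fit over 12 arrays without a block, in which 0 members were called.

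Within single Mex3a gates limma again called 0 members between the Lgr5 gates. Of all genes it called 1.37% among Mex3a-high, 0.0468% among Mex3a-low and 0.0% among Mex3a-negative cells (371 genes of the last comparison had an unadjusted p under 0.05). With the replicate block and without the array that stood apart, 3 members were called in Mex3a-high cells (9.38%, against 4.32% of all genes), with Acot1 (1.07 ± 0.16) and Acot2 (0.70 ± 0.15) higher and Pparg (-0.88 ± 0.18) lower in Lgr5-high. The Lgr5-high arm of this comparison is the single MR820 array, so its spread comes from the other populations. In Mex3a-low cells 2 were called (6.25%, against 2.67%), Acot1 at 0.78 ± 0.13 and Acot2 at 0.72 ± 0.12. In Mex3a-negative cells 4 were called (12.5%, against 2.11%), with Acot1 (0.78 ± 0.13) and Acot2 (0.53 ± 0.12) higher and Ppara (-0.87 ± 0.16) and Cpt1a (-0.44 ± 0.09) lower in Lgr5-high. Acot1 and Acot2 were called in each Mex3a gate of this fit, in Mex3a-high cells without replication of the Lgr5-high arm. The Acot2 calls rest on the probe set used. In MR820 it gave 0.59 between the Lgr5 gates, and the further Acot2 probe set gave 0.06. When each further array was left out, the lone Lgr5-high array of Mex3a-high cells could not be, so dependence on it was not tested. In the 10 refits of this gate Acot1 kept its call in all 10. Acot2 kept it in 9, lost without the MR793 array of Mex3a-high Lgr5-low cells, and Pparg in 8, lost without either array of that population. Among Mex3a-low cells both genes lost their calls without any 1 of the 4 arrays compared. Among Mex3a-negative cells Acot1 kept its call in 8 of 11 refits, lost without either Lgr5-high array or the MR793 Lgr5-low array. Ppara kept it in 7, lost without the same arrays or the MR793 array of Mex3a-low Lgr5-low cells, while Cpt1a kept it in 4 and Acot2 in 2.

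The surrounding pathway genes were called as follows in the same fit, for the mean over the Mex3a gates. These counts are to be read beside the share of all genes given above for that comparison. Of 8 uptake and binding genes, 2 rose in Lgr5-high cells, the acyl-CoA synthetase transporters Slc27a1 (0.47 ± 0.09) and Slc27a2 (0.46 ± 0.05), and 3 fell, Fabp1 (-1.24 ± 0.25), Fabp2 (-0.58 ± 0.10) and Slc27a4 (-0.52 ± 0.15). Of 12 further PPAR targets Txnip rose (0.21 ± 0.04) and Me1 fell (-0.92 ± 0.19), and of 17 further beta-oxidation genes only Slc25a20 fell (-0.41 ± 0.10). Of 9 fatty acid synthesis genes Acss2, an acetyl-CoA synthetase, rose (0.36 ± 0.07) and the elongase Elovl6 fell (-0.82 ± 0.11). No ketogenesis gene (0 of 2) and no coactivator (0 of 6) was called. In the fit over 12 arrays without a block 0 of these pathway genes were called. In a fit without the replicate block, enterocyte markers had a median of -0.95 between Lgr5-high and Lgr5-low cells (1 of 13 called lower). In Mex3a-negative cells of MR820, however, their median level was 10.1 in Lgr5-high and 9.11 in Lgr5-low cells. Goblet markers had a median of -1.37 (3 of 6 called lower). Their median levels were 8.73 to 10.6 on the Lgr5-high and 11.1 to 12.5 on the Lgr5-low arrays, without overlap. The part of enterocytes, goblet, tuft and enteroendocrine cells in the members' differences was not tested.

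Between the Mex3a gates of Lgr5-low cells 0 members were called. All genes were called at 1.73% for Mex3a-high against Mex3a-negative, 0.0468% for Mex3a-low against Mex3a-negative and 0.889% for Mex3a-high against Mex3a-low. The median member difference was -0.25 for Mex3a-high against Mex3a-negative (28 of 32 below 0, -0.34 in MR793 and -0.12 in MR820). For Mex3a-low against Mex3a-negative it was -0.16 (30 of 32 below 0, -0.28 and -0.02), and -0.04 for Mex3a-high against Mex3a-low. Over all genes each of these 3 comparisons had a median of -0.01. Both comparisons against Mex3a-negative share the same arrays of that population, so the signs of the members are not independent. With the strip as a block the median member difference for Mex3a-high against Mex3a-negative was -0.03.

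Mex3a-negative Lgr5-low cells held the highest level of the 6 populations for 21 members in MR793 (65.6%, against 14.9% of all genes) and for 9 in MR820 (28.1%, against 18.0%). Enterocyte markers in this population had a median level of 11.2 in MR793, the highest of the 12 arrays, and 9.11 in MR820, and their part in the members' levels was not tested. With the replicate as a block and without the array that stood apart, 5 members (15.6%, against 11.9% of all genes) were called between Mex3a-high and Mex3a-negative cells of the Lgr5-low gate. Ppara (-0.78 ± 0.16), Etfdh (-0.47 ± 0.09), Acadm (-0.44 ± 0.11) and Etfa (-0.27 ± 0.07) fell, and Acaa1a rose (0.33 ± 0.10). Tuft and enteroendocrine markers, by contrast, rose in Mex3a-high cells of this gate with medians of 5.03 (8 of 8 called) and 3.95 (10 of 11 called) in the fit over 12 arrays. Ppara and Etfdh kept their calls in 10 of 11 refits, lost without the MR820 array of Mex3a-high Lgr5-low cells. Acadm and Etfa kept theirs in 8, lost without either Mex3a-high Lgr5-low array or the MR793 array of Mex3a-negative Lgr5-low cells. Acaa1a kept its call in 2 of 11, and the loss came with 9 different arrays.

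In Lgr5-high cells limma called 0 members and 0.0% of all genes in each of the 3 Mex3a comparisons (661 genes at an unadjusted p under 0.05 for Mex3a-high against Mex3a-negative, 79 for Mex3a-low against Mex3a-negative and 621 for Mex3a-high against Mex3a-low). Mex3a-high against Mex3a-negative gave a median member difference of -0.35, made up of -0.79 in MR793, where the array that stood apart enters, and 0.01 in MR820. Mex3a-low against Mex3a-negative gave -0.05. The test of whether the Mex3a-high against Mex3a-negative difference itself differed between the Lgr5 gates also called 0 members in limma, against 0.398% of all genes (lowest limma adjusted p = 0.865).

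The array that stood apart was the lowest of the 12 for 15 members (46.9%, against 29.6% of all genes) and the highest for 4, Acads, Eci1, Ppard and Angptl4 (12.5%, against 45.0%). When its MR820 counterpart was left out instead, it alone stood for Mex3a-high Lgr5-high cells. The calls of that refit rest on that single array and are not read as results for the members.

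Further probe sets bear on how far a gene's level can be read, and 13 members had 19 of them. Of 14 that belong to members higher in MR793 in all 5 populations, 10 were also higher in all 5. Those of Ppara differed by 1.11 and 1.04 between the replicates, those of Acaa2 by 0.59 and 0.48, that of Hadhb by 0.48 and that of Hadh by 0.42. The exceptions were further probe sets of Acadl (0.17, higher in 4 of 5), Angptl4 (0.09, 4 of 5), Decr1 (0.08, 3 of 5) and Crat (-0.03, 2 of 5), which lay at mean levels of 4.47, 4.41, 7.39 and 6.27. That of Crat correlated at -0.26 over 11 arrays with the one used, so the direction given for Crat rests on 1 of its 2 probe sets. Those of Acsl3 gave 0.03 and -0.20, those of Cd36 0.33 and 0.07 and that of Ppard -0.01, none of them higher in all 5.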

How the data were processed

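RNA from 12 samples of 2000 cells was amplified for 22 cycles and hybridised to Affymetrix arrays, per the labels' protocols. Per the submitters' processing notes the authors used RMA, and the deposited table holds its log2 levels, 1 per probe set. Its version is not given in the sources used here. Raw intensities were not reprocessed, the number of arrays limits the precision, and RMA compresses differences between dim probe sets. Of 45141 probe sets, 28898 name a single gene, 551 name several and 15692 are not listed in the probe table and were not analysed here. The probe set with the highest mean over 12 arrays stood for each of 17097 genes, of which 7180 had several.

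All genes were fitted with limma 3.58.1 (R 4.3.3) with a mean for each of 6 populations and no block, and variances were moderated by eBayes with a trend on the mean level. This gave 6 residual and 3.44 prior degrees of freedom. Without a block the replicate difference enters the residual spread, which lowers the counts of called members more than those of genes without such a difference. P values were adjusted by Benjamini-Hochberg over all genes of each of 11 comparisons and called under 0.05. The fit was also run on simulated data with independent noise, a spread taken without the array that stood apart, and no replicate difference. It therefore was not tested under the conditions of these arrays. Replicate differences, ranks and variation shares were computed as descriptions with pandas 2.3.3 and numpy 2.4.6 (Python 3.11.15).

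The members and lists were chosen with earlier results of these data known. All 35 listed members are named. Of the other pathway lists, the rule names called genes and up to 4 with the smallest p between the Lgr5 gates, and exceptions are stated. Replicate differences of population pairs correlated over 0.1 in 14 of 15 pairs (lowest -0.115), and at 0.374 to 0.566 in the 10 pairs without Mex3a-high Lgr5-high cells. The alternatives were blocks for replicate or strip, quantile normalization again, centring, array weights, no trend, the mean of all probe sets, a filter on low levels, the arrays of 1 gate alone, and leaving out each array.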

Additional observations from a re-analysis of the deposited data

Results flagged for a closer look

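Each member was checked for a single array far from the other 5 of its Lgr5 gate, in 64 groups of 6 arrays, where chance marks about 1 group in 20. Of 9 arrays so marked, 7 were the MR793 array of Mex3a-high Lgr5-high cells: Acadm at 7.55 (nearest other Lgr5-high array 8.98), Etfa at 9.65 (10.8), Echs1 at 8.07 (9.45), Decr1 at 8.49 (9.41) and Acsl3 at 6.48 (8.10) lay below the rest, and Acads at 8.38 (7.59) and Eci1 at 10.2 (9.73) above. Acaa1b at 6.30 in Mex3a-negative Lgr5-high cells of MR793 lay above the nearest Lgr5-high array at 5.40, and Ehhadh at 7.27 in Mex3a-negative Lgr5-low cells of MR793 lay above the nearest Lgr5-low array at 6.45.

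For Eci1 the Mex3a difference had opposite signs in the Lgr5 gates in both replicates. Mex3a-high minus Mex3a-negative was 0.26 among Lgr5-high and -0.21 among Lgr5-low cells, a gap of 0.47, which limma did not call (adjusted p = 0.865). The Lgr5-high value rests in part on the array that stood apart, since it was 0.52 in MR793 and 0.01 in MR820.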

How the results depend on the processing

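In limma, 0 members were called in each of the 11 comparisons with the replicate block alone, with the strip block, after quantile normalization or centring, with array weights, without the trend, with the mean of all probe sets, with low genes left out, and with the arrays of 1 Lgr5 gate alone where that applies. Counts moved only where choices were joined or 1 array was removed. The replicate block and omission of the array that stood apart, added after the data were seen, gave 5 members for Mex3a-high against Mex3a-negative among Lgr5-low cells. In that paired fit the Lgr5 comparison gave 6 over the Mex3a gates, 3 among Mex3a-high, 2 among Mex3a-low and 4 among Mex3a-negative cells. The replicate block with array weights was also added. Among Lgr5-low cells it gave 5 for Mex3a-high against Mex3a-negative and 1 for Mex3a-high against Mex3a-low. For the Lgr5 comparison it gave 2 among Mex3a-low and 4 among Mex3a-negative cells, but 0 over the Mex3a gates. The shares of all genes called with these weights are not given here, so these counts do not set the members apart from other genes.

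Where an array is left out, the other array of its population is assumed to vary like the rest. Without the MR820 array of Mex3a-high Lgr5-high cells, the array that stood apart alone stands for its population. The counts of that refit, given below, rest on that single array, and the share of all genes called there is not given here. They therefore do not set the members apart from other genes. Leaving out each array in turn gave 0 members except without the MR820 array of Mex3a-high Lgr5-high cells. Counts then ranged over 0 to 13 for Mex3a-high against Mex3a-negative and 0 to 11 for Mex3a-high against Mex3a-low among Lgr5-high cells. They ranged over 0 to 11 for the Lgr5 comparison over the Mex3a gates, 0 to 13 in Mex3a-high cells and 0 to 9 for the difference between the gates. The numbers pair the samples in 14 of 15 population pairs, short of every pair. With 2 arrays a population, a missed threshold does not show that levels are alike, and the cause of the replicate difference was not tested.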
